A study of Drosophila melanogaster with 3 samples.

Results

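The enzymes of glycolysis, the pathway that splits glucose into pyruvate, were examined for binding of Insensitive (Insv) in Drosophila melanogaster embryos. The set comprises 10 of 13945 protein-coding genes: Pgi, Pfk, Ald1, Tpi, Gapdh1, Gapdh2, Pgk, Pglym78, Eno and PyK. Regions were assigned to an enzyme gene when they overlapped it or lay within 5 kb of it. By this rule the genes held 66 of the 30000 regions of replicate 1, 63 of the 30000 of replicate 2, 55 of the 30000 of replicate 3, 61 of the 30000 pooled regions and 5 of the thresholded regions (0.683% of that list). The genes were picked with their place in these lists already known, Pglym78 in particular for its rank, so ranks and counts are given as a description and no test was made on them.

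Chromatin immunoprecipitation followed by sequencing (ChIP-seq) had been performed on embryos of both sexes collected 0 to 24 hours after laying. There was 1 group of 3 biological replicates and no second group. All 3 carried a stably inherited insertion that expresses Insv with GFP at its C terminus, and the precipitation used an antibody to GFP. The promoter and copy number of the insertion, and whether endogenous insv was still present, were not stated in the labels used here. Whole embryos of all embryonic stages were mixed, so a site bound strongly in few cells and a site bound weakly in many cannot be told apart.

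Glycolysis runs from glucose through the phosphorylated hexoses to a pair of triose phosphates and on to pyruvate, with a net yield of ATP and NADH. In Drosophila the nuclear receptor ERR is known to switch on many glycolytic genes together midway through embryogenesis, which readies the animal for larval growth. Insv is a nuclear co-repressor with a BEN domain, a DNA-binding fold, and is known for its part in sensory organ development and in repression of Notch target genes. The BEN domain of Insv is known to recognise the palindrome CCAATTGG. The related BEN proteins Elba1 and Elba2, together with the adaptor Elba3, form the Elba insulator complex, which is known to recognise the asymmetric site CCAATAAG.

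Each replicate list held peaks together with weaker background regions, and the thresholded list was identical in position and signal to the strongest regions of the pooled list, down to a signal of 75.0. Membership of a 30000-region list is therefore a weak statement, and the rank within the list carries the information. Rank 1 is the region with the highest deposited signal, a value of the authors' peak caller whose scale is not stated, so signals were set side by side only within a list. The median signal was 13.6 in replicate 1, 10.6 in replicate 2, 9.17 in replicate 3, 25.5 in the pooled list and 121.6 in the thresholded list. Sequencing depth is unknown, and no interval that needs it is given. Most regions had a fixed width, with medians of 424, 430, 380 and 416 bp in replicates 1, 2 and 3 and the pooled list, and their summit lay within 1 bp of the middle in 29949, 29956, 29971 and 29886 of 30000 regions. A summit of such a region marks its centre.

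Of the 10 enzyme genes, 4 had a thresholded region: Pglym78, PyK, Gapdh2 and Pgk. All 4 are among the 6 genes of the set for the lower, ATP-yielding part of the pathway. Of the 4 genes of the set for the upper part (Pgi, Pfk, Ald1 and Tpi), 0 had one. With so few genes, and a share of 11.7% over all protein-coding genes, nothing is read from this difference between the parts. Hexokinase, the first step of the upper part, is not in the set. Of the hexokinase genes, Hex-A and Hex-C had thresholded regions within 5 kb, at ranks 718 and 315, that of Hex-C nearer to the start of mRpL41. Hex-t1 and Hex-t2 had none within 5 kb. A thresholded region lay as near to 1638 of 13945 protein-coding genes (11.7%), and since the enzyme genes were chosen from this list nothing is read from the difference. A pooled region lay near 10 of 10 enzyme genes and near 12834 of all protein-coding genes (92.0%), so a pooled region alone sets no gene apart. One of the 1000 strongest regions of every replicate lay near 3 of 10 enzyme genes, namely Pglym78, PyK and Pgk, and near 1234 of all protein-coding genes (8.85%). The strongest pooled region of each enzyme gene had a median rank of 1317.5, against 4044.5 over all genes that had one. The enzyme genes were chosen with their ranks known, so nothing is read from these differences in rank. The median number of pooled regions per gene was 5.5 for the enzyme genes and 5.0 for all protein-coding genes.

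**Figure D1:**
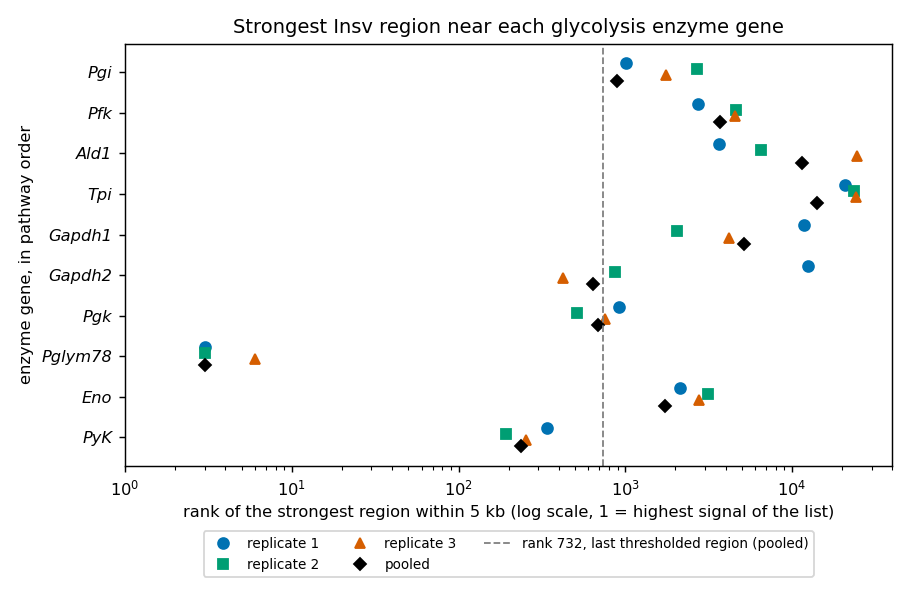
Rank of the strongest region within 5 kb of each enzyme gene, in pathway order from top to bottom; the horizontal axis is the rank on a log scale, with 1 the highest signal of the list. Points stand for the 3 replicates and the pooled list, and the dashed line marks the last thresholded region. Pglym78 sits at ranks 3 to 6, PyK at 193 to 337, and Tpi at 14193 to 24121.

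Pglym78 (FBgn0014869) encodes phosphoglycerate mutase, which moves the phosphate of phosphoglycerate between carbons just before enolase acts. The gene lies on chromosome 3R from 29148248 to 29149901 of dm6, plus strand, with annotated transcript starts at 29148248, 29148342 and 29148362. Its thresholded region spans chr3R:29148063-29148433, 371 bp across all 3 starts, and ranked 3 with a signal of 863.6. The highest signal of the pooled list was 1202.4. The summit, at 29148269, lay 21 bp downstream of the first start, inside the 5′ UTR of the transcript that begins there.

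The replicates placed this region alike. Its signal was 360.6 in replicate 1, 301.8 in replicate 2 and 205.8 in replicate 3, beside list maxima of 538.2, 380.5 and 282.0. Its ranks were 3, 3 and 6, a mean of 4.0 ± 1.7 (SD, n = 3). The called regions were 314, 328 and 262 bp wide, narrower than the median of each list. The summits fell 25, 20 and 27 bp downstream of the first start, a mean of 24.0 ± 3.6 bp (SD, n = 3), so the 3 positions differed by less than the length of an 8-bp motif. Narrow calls were the rule at the top of the list: 22 of the 25 strongest thresholded regions (88.0%) and 120 of all (16.4%) were narrower than the median width.

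Signal near Pglym78 was concentrated in this 1 region. The next strongest pooled region within 5 kb, in the coding sequence of Rpn2, had a signal of 33.8 and rank 6237. The 4 others ranked from 7543 to 15833, with signals of at most 31.9, beside a list median of 25.5. The share of protein-coding genes with a region ranked as high as that of Pglym78 was 0.0861% in replicates 1 and 2 and in the pooled list, and 0.129% in replicate 3.

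**Figure D2:**
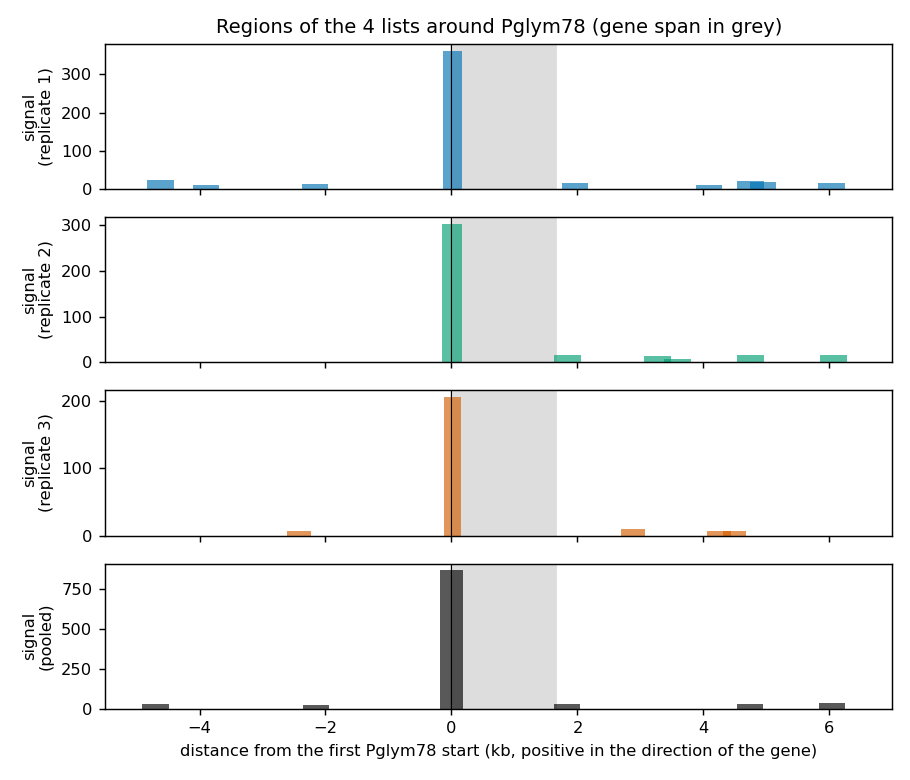
Regions of the 3 replicate lists and the pooled list around Pglym78; the horizontal axis is the distance from its first start in kb, and each bar spans a region with its height giving the deposited signal on the scale of that list. The region over the start reaches 360.6, 301.8, 205.8 and 863.6. The other regions reach at most 23.7, 16.4, 10.5 and 33.8, beside list medians of 13.6, 10.6, 9.17 and 25.5.

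The region is shared with a second promoter. CG11882 (FBgn0039642, chromosome 3R, 29147016 to 29148172, minus strand) runs head to head with Pglym78, their starts are 76 bp apart, and the summit lay 97 bp upstream of the start of CG11882. The start of Pglym78 was the nearer one in the pooled list and in all 3 replicates, but a region of this width covers both. In all, 6 protein-coding genes lie within 5 kb of the region, with eIF2D, Slbp, superdeath and CG14511 besides these.

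The short stretch between the starts holds the Elba-type site, and the start of the Pglym78 transcript holds a second 8-mer, so both are shown, with the corresponding stretches of PyK for comparison. Sequences are from the RefSeq copy of the release 6 assembly (dm6), written 5′ to 3′ on the plus strand. Capitals mark CCAATAAG in the first sequence and CAATCAGA, or its reverse complement TCTGATTG, in the next ones; the 2 sequences between gene starts run from one start to the other, and that of PyK holds none of the 6 motifs searched.
Pglym78 intergenic, chr3R:29148173-29148247: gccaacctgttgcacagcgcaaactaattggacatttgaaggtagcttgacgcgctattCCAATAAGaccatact
Pglym78 site, chr3R:29148245-29148274: actccggagtcCAATCAGAgaaggcaccgc
PyK site, chr3R:22367550-22367579: gacgcactgttTCTGATTGgagtgttcgct
PyK intergenic, chr3R:22367374-22367535: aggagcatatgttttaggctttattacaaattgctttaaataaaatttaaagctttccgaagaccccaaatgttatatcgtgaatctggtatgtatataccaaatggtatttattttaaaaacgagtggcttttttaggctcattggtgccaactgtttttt

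The Elba-type site of Pglym78, at chr3R:29148232-29148239 on the plus strand, covered positions -16 to -9 relative to the first start and began 37 bp before the summit. CAATCAGA, at chr3R:29148256-29148263 on the plus strand, covered positions 8 to 15 past the first start and began 13 bp before the summit. CAATCAGA had ranked highest among 8-mers in an earlier look at these same regions, so its presence in a strong region is not independent of how it was found. At PyK the same 8-mer lay on the minus strand at chr3R:22367561-22367568, from 25 to 32 bp past the first start, and began 12 bp after the summit. Both genes thus carry it inside the first stretch of the 5′ UTR, in opposite orientations.

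A set of 6 motifs was sought on both strands across the whole of each region, and their counts over the 5 thresholded regions of enzyme genes are set beside those over the whole thresholded list. CCAATTGG, the palindrome of Insv, was in 0 of 5 regions and in 128 of the whole list (17.5%); within 100 bp of the summit it was in 0 of 5 and in 98 of the whole list (13.4%). CCAATAAG was in 1 of 5, that of Pglym78, and in 71 of the whole list (9.7%). CAATCAGA was in 3 of 5 and in 70 of the whole list (9.56%), but the 2 overlapping regions of PyK share 1 copy, so 2 sites are counted.

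The other motifs searched belong to factors commonly found at fly promoters, and none was in the 5 regions. TATCGATA, the site of DREF and BEAF-32, was in 0 of 5 and in 42 of the whole list (5.74%). GAGAGAG, the repeat bound by GAGA factor, was in 0 of 5 and in 136 of the whole list (18.6%). GGTCACAC, the core promoter motif bound by M1BP, was in 0 of 5 and in 38 of the whole list (5.19%). With 5 regions, counts of 0 at such shares say only that these letters are not in these windows.

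CCAATAAG and CAATCAGA occurred together in 1 of the 5 regions and in 6 of the whole list (0.82%). Besides Pglym78 at rank 3, these were the regions nearest to the starts of tun (rank 4), cib (rank 16), CG34117 (rank 148), Pgant5 (rank 204) and Fer3 (rank 216). Among the 25 strongest thresholded regions, 3 held both, 6 held CCAATAAG and 8 held CAATCAGA. CAATCAGA was picked from these same regions, so nothing is read from the counts that include it.

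**Figure D3:**
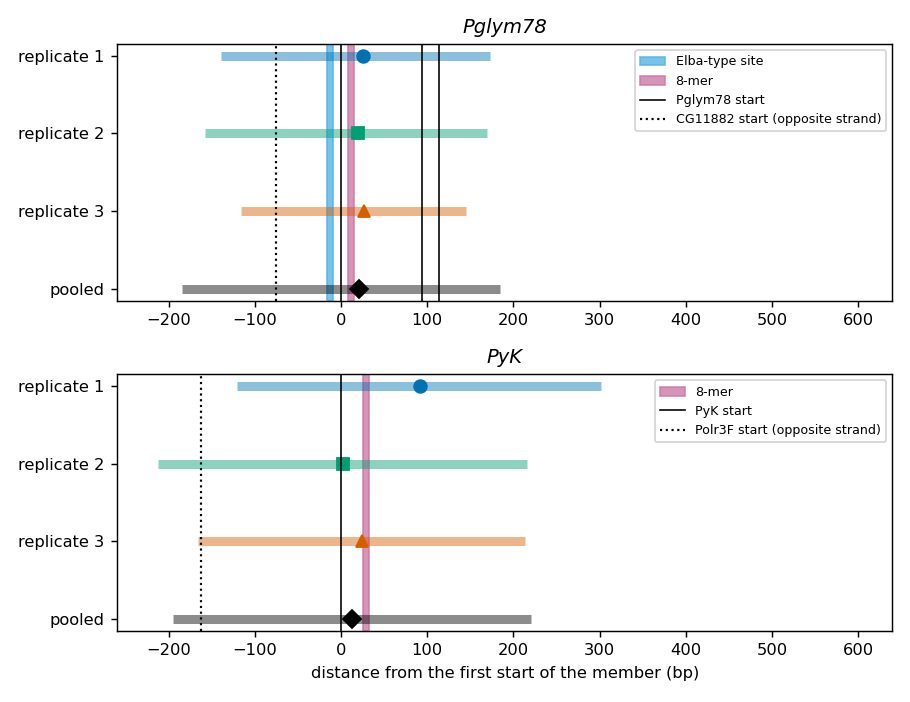
Thresholded region and summit of Pglym78 (top) and PyK (bottom) in each replicate and in the pooled list; the horizontal axis is the distance in bp from the first start of the gene, bars are called regions and markers their summits. Shaded bands mark the Elba-type site and the 8-mer: the Pglym78 summits sit at 20 to 27 bp, just past the 8-mer, and those of PyK spread from 2 to 91 bp.

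The thresholded regions with ranks most like those of Pglym78 across the 3 replicates were taken as the 5 with the smallest summed absolute difference in log10 rank. These regions were nearest to the starts of tun (summed difference 0.954, ranks 6, 9 and 4), CG43138 (0.962, ranks 5, 11 and 9), rdx (1.067, ranks 18, 5 and 7), Dpm3 (1.13, ranks 1, 2 and 2) and VhaAC45 (1.188, ranks 13, 8 and 8). None of them is a glycolytic gene. The region of tun, like that of Pglym78, held both CCAATAAG and CAATCAGA; the regions of the other 4 held neither, and CCAATTGG was in none of the 5. The summit of Pglym78 was the closest of these to a start, at 21 bp, against 180 bp for Dpm3, 204 bp for VhaAC45, 407 bp for rdx, 448 bp for tun and 6182 bp for CG43138.

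PyK (FBgn0267385), which encodes pyruvate kinase, the last, ATP-yielding enzyme, was the second of the set. The gene lies on chromosome 3R from 22367536 to 22372746, plus strand. It had 2 thresholded regions that overlap each other. The stronger, chr3R:22367341-22367756, ranked 238 with a signal of 166.5, and its summit lay 13 bp downstream of the first start in the 5′ UTR. The weaker, chr3R:22367543-22367958, ranked 657 with a signal of 81.4 and had its summit 215 bp downstream, in the first part of an intron.

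The stronger region was called in every replicate. Its ranks were 337, 193 and 254 (mean 261.3 ± 72.3, SD, n = 3), and its signals were 54.8, 70.0 and 38.7. The replicate ranks of PyK did not overlap those of Pglym78. The summits lay 91, 2 and 24 bp past the start (mean 39.0 ± 46.4 bp, SD, n = 3), a wider spread than at Pglym78; these calls had the fixed width, so the spread is that of region centres. In replicate 2 the stretch was also called as 2 regions, the second at rank 359 with a signal of 47.0. In replicate 1 the second call had rank 3938, and replicate 3 had no second call in this stretch.

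As at Pglym78, the promoter of PyK is divergent. Polr3F (FBgn0038951, chromosome 3R, 22366080 to 22367373, minus strand), which encodes a subunit of RNA polymerase III, starts 163 bp away head to head, and the stronger summit lay 176 bp upstream of its start. The share of genes with a pooled region ranked as high as that of PyK was 4.88%.

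Gapdh2 (FBgn0001092, chromosome X, 15868145 to 15869661, plus strand) encodes glyceraldehyde-3-phosphate dehydrogenase, the NADH-yielding enzyme. Its thresholded region, chrX:15867778-15868193, ranked 637 with a signal of 83.4, and the summit lay 159 bp upstream of the first start in intergenic DNA. No other gene started nearer: the next, CG16952, begins 2197 bp from the summit. Of the 4 genes it was the only one with no start of another gene within 1 kb of the summit. The 300 bases before its start, from the same assembly on the plus strand, are shown because they hold the summit; the region holds none of the 6 motifs.
Gapdh2 upstream, chrX:15867845-15868144: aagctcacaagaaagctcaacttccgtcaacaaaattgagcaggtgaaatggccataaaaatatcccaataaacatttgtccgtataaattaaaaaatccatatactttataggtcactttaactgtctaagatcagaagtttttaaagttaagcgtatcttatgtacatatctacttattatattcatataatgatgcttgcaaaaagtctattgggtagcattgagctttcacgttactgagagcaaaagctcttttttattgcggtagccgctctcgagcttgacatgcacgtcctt

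Gapdh2 was the thresholded enzyme gene on which the replicates parted most plainly. The region had no overlapping call among the 30000 of replicate 1, whose lowest signal was 10.2. In replicate 2 it ranked 868 with a signal of 27.7, and in replicate 3 it ranked 425 with a signal of 27.5, with summits 130 and 159 bp upstream of the start. The strongest region of replicate 1 within 5 kb lay inside the gene, with rank 12539 and a signal of 14.5. A thresholded region absent from replicate 1 was uncommon (3 regions, 0.41% of the list), and 15 regions (2.05%) were absent from at least 1 replicate. Without replicate 1 the mean rank of the strongest Gapdh2 region was 646.5, against 4610.7 ± 6869.7 (SD, n = 3) with it. A stronger thresholded region lay just beyond the 5 kb limit, 5975 bp from Gapdh2 within CG16952, with rank 67 and a signal of 314.4. The same was so for Pgk, with a region 6470 bp from the gene at rank 128 and a signal of 234.6. That region was nearest to the start of another gene.

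Pgk (FBgn0250906, chromosome 2L, 2746880 to 2753068, minus strand) encodes phosphoglycerate kinase, the first ATP-yielding enzyme. Its thresholded region, chr2L:2751837-2752252, ranked 682 with a signal of 79.3. The summit lay in an intron, 1023 bp into the gene from its most upstream start, and 400 bp upstream of the start of Bacc (FBgn0031453, 2752445 to 2757975, plus strand), a gene that overlaps the 5′ part of Pgk on the other strand. The start of Bacc was therefore the nearer one. The region ranked 3748, 512 and 5637 in replicates 1, 2 and 3 (mean 3299.0 ± 2591.8, SD, n = 3), with signals of 20.7, 37.3 and 12.4. Only replicate 2 placed it among its 1000 strongest, as was so for 61 thresholded regions (8.33%) that 1 replicate alone placed there.

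Pgk counted among the genes with a region in the 1000 strongest of every replicate because different regions met that limit. In replicate 1 the strongest was 293 bp downstream of a Pgk start, with rank 913 and a signal of 31.9. In replicate 2 it was the thresholded one, with rank 512 and a signal of 37.3. In replicate 3 it lay 3034 bp upstream of the most upstream start, within Bacc, with rank 754 and a signal of 21.7. Pgk had 11 pooled regions within 5 kb, ranked from 682 to 25664. The second, chr2L:2752676-2753091, was outside the thresholded list, with rank 1025 and a signal of 62.4. When the same thresholded region had to be among the 1000 strongest of every replicate, 2 enzyme genes remained, Pglym78 and PyK. That was the common outcome over the thresholded list, where 479 regions (65.4%) met it.

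**Figure D4:**
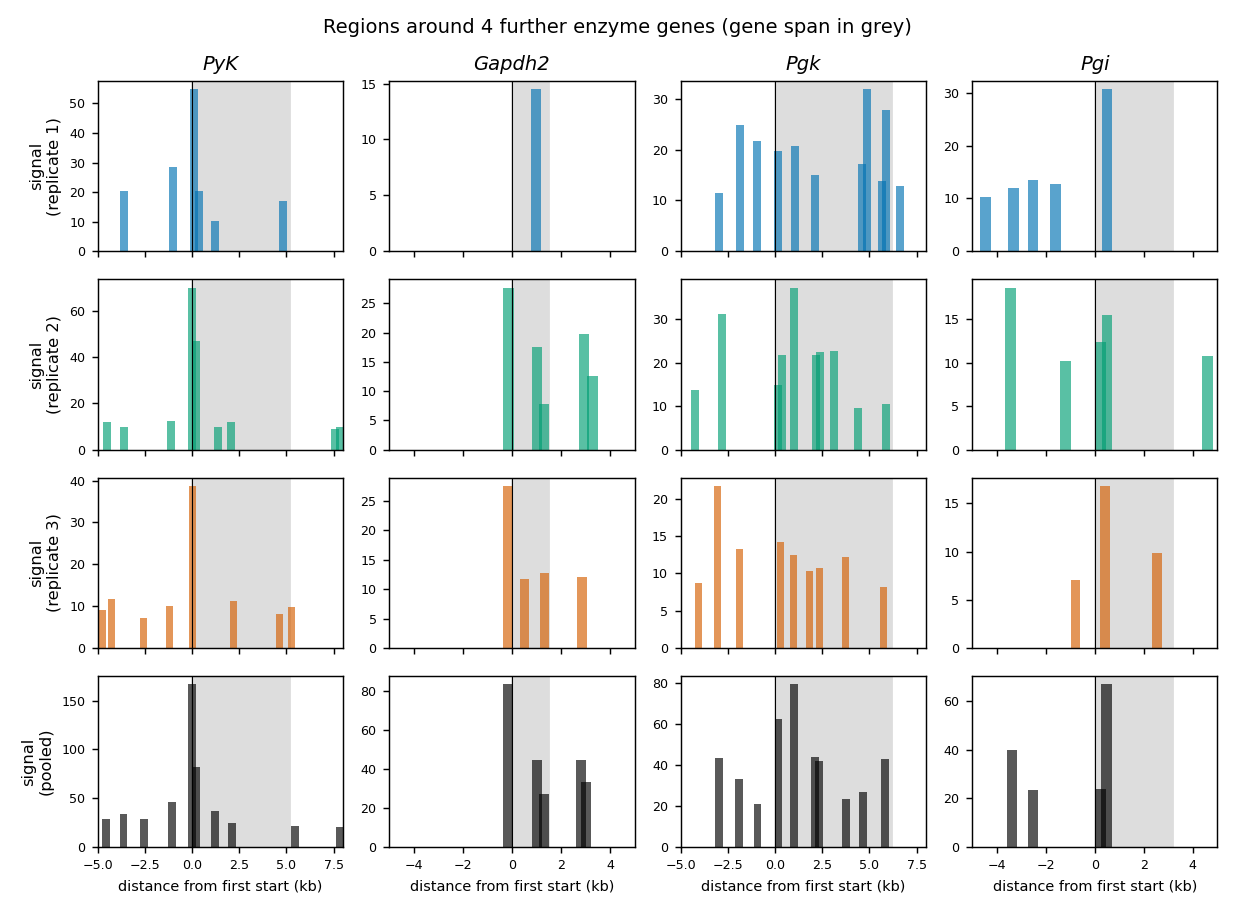
Regions around PyK, Gapdh2, Pgk and Pgi (columns) in the 3 replicate lists and the pooled list (panel lines); the horizontal axis is the distance in kb from the most upstream start, with positive values into the gene, and bar height is the deposited signal on the scale of that list. PyK shows 1 stretch that stands above the rest in all 4 lists, Gapdh2 lacks its upstream region in replicate 1, and the regions of Pgk are spread over the gene and beyond it.

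The other 6 enzyme genes had no thresholded region. Pgi, phosphoglucose isomerase, which interconverts the hexose phosphates at the head of the pathway, came closest. Its strongest pooled region, chr2R:8913383-8913798, ranked 893 with a signal of 67.0, below the lowest thresholded signal of 75.0, and its summit lay 295 bp downstream of a start in the 5′ UTR. The replicates gave this region ranks of 1010, 4907 and 1760 and signals of 30.7, 15.4 and 16.8. Around the limit of the thresholded list, the weaker PyK region at rank 657 and the Pgk region at rank 682 were just inside and the Pgi region just outside.

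Eno, enolase, which makes phosphoenolpyruvate, had ranks of 2130, 3127 and 2759 for its strongest region in the 3 replicates (mean 2672.0 ± 504.2, SD, n = 3). These were 3 different regions, just upstream of a start, in the 5′ UTR and in a coding exon. The summit of the replicate 1 region lay 151 bp upstream of an Eno start but nearer to CG31937, 100 bp upstream of its start. In the pooled list the strongest region of Eno had rank 1742 and a signal of 50.2. It lay in an intron of Rim2, 1663 bp outside Eno, and the replicates ranked it 4381, 3190 and 8580. The strongest pooled region overlapping Eno ranked 3811, with a signal of 39.2, and its summit lay in the coding sequence of Rrp40. Pfk, phosphofructokinase, the committing step of the pathway, had ranks of 2728, 4634 and 4580 (mean 3980.7 ± 1085.2), from 3 different regions in Pfk, Ccs and dmpd. Its strongest pooled region, rank 3678 and signal 39.6, lay in a coding exon of Pfk, 5895 bp from the nearest Pfk start and 929 bp upstream of dmpd, and the replicates ranked it 2728, 12902 and 26996.

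Gapdh1, the second glyceraldehyde-3-phosphate dehydrogenase gene, stood well below Gapdh2 in the pooled list, at rank 5149 for Gapdh1 and rank 637 for Gapdh2. Its strongest pooled region, with a signal of 35.7, lay in the coding sequence of CG12824 and had ranks of 11792, 20913 and 4789 in the replicates, and the region over Gapdh1 itself ranked 9689 with a signal of 29.5. The strongest region near Gapdh1 ranked 11765, 2031 and 4195 in the replicates (mean 5997.0 ± 5111.1), at a different place in each, within CanB2 or CG12825. That near Gapdh2 had ranks of 12539, 868 and 425. The ranks of the genes therefore overlapped, and in replicate 1 neither had a region near the top of the list. No pooled region within 5 kb of Gapdh1 had its summit in the 5′ UTR or upstream of the start of that gene.

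Tpi, triose phosphate isomerase, and Ald1, fructose bisphosphate aldolase, were the enzyme genes lowest in the pooled list. Tpi had a single region in each 30000-region list, with ranks of 20795, 23497 and 24121 in the replicates (mean 22804.3 ± 1767.9) and 14193 in the pooled list. The pooled region, with a signal of 26.0, lay in the coding exon, 925 bp downstream of a start, and only the call of replicate 1 overlapped it. Ald1 had a single pooled region, at rank 11529 with a signal of 27.9, 2097 bp beyond the 3′ end of the gene. The replicates gave Ald1 ranks of 3646, 6534 and 24433 (mean 11537.7 ± 11260.7), from regions at different places. For Tpi 77.2% and for Ald1 72.4% of protein-coding genes had a pooled region ranked as high.

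**Figure D5:**
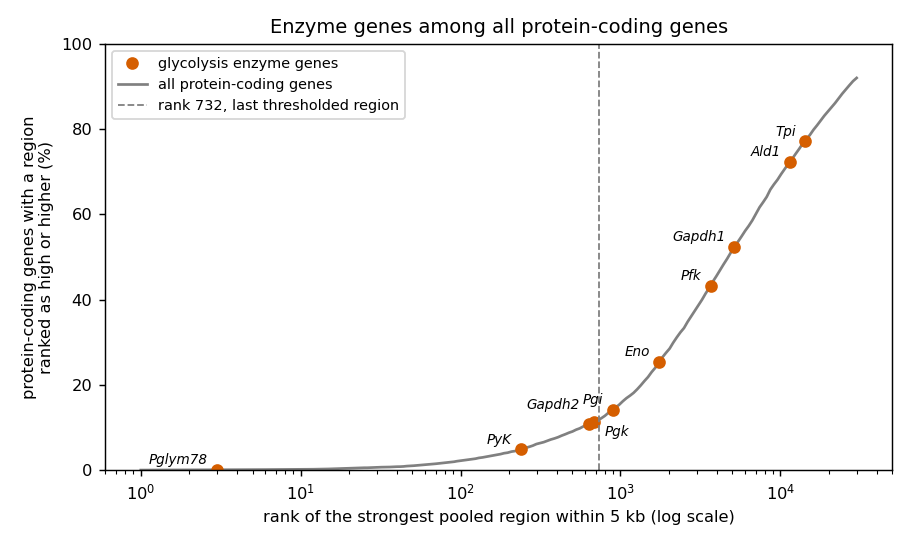
Enzyme genes (points) on the cumulative curve of all protein-coding genes (line); the horizontal axis is the rank of the strongest pooled region within 5 kb on a log scale, the vertical axis the percentage of protein-coding genes with a region ranked as high or higher. The 10 enzyme genes run from 0.0861% for Pglym78 to 77.2% for Tpi, and Gapdh2 (10.9%) and Pgk (11.3%) sit just inside the last thresholded rank.

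By mean rank of the strongest region over the replicates the order was Pglym78, PyK, Pgk, Pgi, Eno, Pfk, Gapdh2, Gapdh1, Ald1 and Tpi. The replicate ranks of Pglym78 (3 to 6) and of PyK (193 to 337) overlapped those of no other enzyme gene. Pgk (512 to 913) did not overlap Pgi (1010 to 2697), which follows it. From Pgi onward each gene overlapped its neighbour in the order. Only for Pglym78 and PyK did the ranks come from the same stretch in all 3 replicates; for the other 8 genes the strongest region lay at different places. Gapdh2 spanned 425 to 12539, and its place in the order rests on replicate 1.

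The 61 pooled regions near the enzyme genes were mostly outside the thresholded list. Their median rank was 9689, 6 were among the 1000 strongest and 29 ranked below 10000. Ranks in the whole list run to 30000, so these values do not place the 61 as a set among its weaker regions. Of the 61, 28 overlapped the enzyme gene, 21 had a start of the enzyme gene as the nearest one and 40 had their summit nearer to the start of another gene. The summit lay in a coding exon for 24, in an intron for 21, in a 5′ UTR for 10, in a 3′ UTR for 3 and between genes for 3. Counts of overlap, nearest start and summit place are not given for all pooled regions, so nothing is read from them. CCAATTGG was in 1 of the 61, at rank 11129 in an intron of CG5382 near PyK, and in 1.62% of all 30000 pooled regions. CCAATAAG was in 2, both near Pglym78 (ranks 3 and 15833), and in 1.36% of all. CAATCAGA was in 3, those of Pglym78 and PyK given above, and in 1.88% of all.

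Genes around the pathway were counted from 5 lists of further isoenzymes, pathway exits and regulators, glycogen and trehalose metabolism, the pentose phosphate pathway, and pyruvate entry with the citric acid cycle. Of the 57 genes of these lists placed in the annotation, 13 (22.8%) had a thresholded region within 5 kb, beside 11.7% of all protein-coding genes. The lists were chosen with earlier results of these data known, so nothing is read from the difference. In 5 of the 13 the start nearest to the summit of the strongest thresholded region was that of the listed gene. These were Hex-A, Ldh, Zw, CG8036 and muc.

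Hex-A, a hexokinase that starts glycolysis by phosphorylating glucose, had a region at rank 718 with its summit 298 bp upstream of the start. The replicate ranks of this region were 2960, 591 and 792. Ldh, lactate dehydrogenase, which turns pyruvate into lactate, had a region at rank 664 with a signal of 80.2, 259 bp upstream of its start; the replicate ranks were 1953, 608 and 444. Zw, which encodes the first enzyme of the pentose phosphate pathway, had a region at rank 645, with replicate ranks of 355, 977 and 5454. That region overlapped the gene, with its summit 1083 bp upstream of the nearest Zw start. CG8036, annotated in that list as a transketolase, had a region at rank 345 with a signal of 127.8 and replicate ranks of 346, 703 and 379. This region also overlapped the gene, with its summit 228 bp upstream of the nearest CG8036 start. The stronger of 2 regions of muc, a subunit of pyruvate dehydrogenase, ranked 353 and lay 218 bp upstream of its start, with 1 copy of CCAATTGG. The replicates ranked this muc region 336, 507 and 910.

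For the other 8 listed genes the strongest thresholded region within 5 kb was closer to another start. Fum1, fumarase, overlapped a region at rank 142 with a signal of 216.0 and 3 copies of CCAATTGG, nearest to ND-ASHI. The nearest starts were mRpL41 for the region near Hex-C, ND-18 for Pfrx, swa for kdn, enc for Scsalpha1, ZnT86D for SdhC and PTPMT1 for SdhD. Pfrx had 2 thresholded regions. The one named with ND-18 lay 3047 bp from the gene, the other lay within 1 kb of it, and the nearest start of that other one is not given. CG7069, a second pyruvate kinase gene downstream of PyK, was counted through the weaker PyK region. By list, the counts were 3 of 13 further isoenzymes, 2 of 11 exits and regulators, 0 of 7 glycogen and trehalose genes, 2 of 7 pentose phosphate genes and 6 of 19 genes of pyruvate entry and the citric acid cycle.

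The paralogues of Pglym78 did not share its region. The strongest pooled region near Pglym87 ranked 15727 and that near CG7059 ranked 14088. Ald2, the paralogue of Ald1, had no pooled region within 5 kb. ERR, the nuclear receptor named above, had its strongest pooled region at rank 973, outside the thresholded list.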

How the data were processed

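ChIP-seq of GFP-tagged Insv had been made in 3 biological replicates of 1 group. For each replicate and for the pooled alignments the authors deposited 30000 regions on dm6, and a shorter list that passed an analysis of irreproducible discovery rate (IDR), with a control library in the calling per the labels and accompanying text. Each region carries a deposited signal value (column 7), a deposited score (column 9) and a summit offset (column 10), whose scales are not stated. The sources used here name no caller, aligner, IDR threshold or depth. The control library and the dm3 lists were not analysed here.

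Regions were ranked by signal within each list and joined to the Ensembl 115 annotation (BDGP 6.54); gaps were counted from region edge to gene edge, and summits to the nearest annotated start. A replicate region matched a thresholded one at 1 bp of overlap, the strongest match being used. Motifs were sought on both strands. The counting was tested on simulated regions. Members, gene lists and motifs were chosen with earlier results of these data known. Named were all 10 enzyme genes, genes with a nearer start and listed pathway genes with a thresholded region. The 5 regions most like that of Pglym78 were also named. Pglym87, CG7059, Ald2, ERR, Hex-t1, Hex-t2 and the genes of regions with both motifs were named after their values were seen. Alternatives changed the distance, threshold, ranking column, summit, annotation, window, overlap and replicates. Python 3.11.15, NumPy 2.4.6, pandas 2.3.3 and matplotlib 3.10.9 were used.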

Additional observations from a re-analysis of the deposited data

How the results depend on the processing

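With only the 366 strongest thresholded regions, 2 enzyme genes had one, Pglym78 and PyK, in place of 4, beside 7.16% of all protein-coding genes in place of 11.7%. The number was 4 for overlap alone, at 1 kb and at 2 kb, beside 4.19%, 6.34% and 7.69% of all genes. It was 5 at 10 kb, beside 17.5%, with Gapdh1 added through a region at rank 542, 8879 bp from that gene. It was 3 where the summit had to be nearest to a start of the enzyme gene, which leaves out Pgk. No share of all genes is given for that last setting, so nothing is read from its count. Of the 57 genes of the neighbouring lists, 9 had a thresholded region within 1 kb, in place of 13 within 5 kb. The share of all genes at 1 kb was 6.34%. By the score in place of the signal, the pooled region of Pglym78 ranked 1 in place of 3, and that of PyK ranked 1 in place of 238; 283 regions tie at the highest score, so the score does not separate the 2 genes. By the centre of the region in place of the summit, the distance of the Pglym78 region from the nearest start was 0 in place of 21 bp. Leaving out 1 replicate at a time gave 3 to 4 enzyme genes with a region among the 1000 strongest of every replicate kept, and a mean rank of 3 to 4.5 for Pglym78. The share of all genes with 1 replicate left out is not given, so nothing is read from the counts of 3 to 4. Without replicate 1 the mean rank of Gapdh2 was 646.5 in place of 4610.7, and without replicate 3 that of Ald1 was 5090 in place of 11537.7. No paired analysis was possible because there is 1 group. Depth is unknown, so how far a rank below the thresholded list can be told from background is not known, and the median pooled signal of 25.5 lies close to the signals at Tpi and Ald1.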
